A study of Danio rerio with 4 samples.

Results

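The genes described here encode the nuclear-made subunits of oxidative phosphorylation, with the assembly factors, the ATP synthase inhibitors and the supercomplex factor that share their gene names. They were chosen by name: every deposited gene ID whose symbol begins with nduf, uqcr, atp5, sdha to sdhd, cyc1, cycs or cox4 to cox8, in either case. The names found 111 IDs among the 25873 in the table. Of these, 106 had at least 10 counts in at least 2 libraries and were kept, and the other 5 (COX6A1, cycsa, ndufa4l2b and a pair of IDs named COX5B) fell below. Just inside this limit lay cox4i1l, with counts of 29 and 17 (positive) and of 7 and 6 (negative), and cox8b, with 2 and 0 against 10 and 19. Just outside lay COX6A1, with 5 and 9 counts against 14 and 5. The 106 kept IDs comprised 46 of complex I, 9 of complex II, 9 of complex III, 1 of cytochrome c, 21 of complex IV and 20 of complex V.

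The cells came from zebrafish embryos at 14 to 16 somites that carried Tg(nkx2.5:ZsYellow), a transgene in which nkx2.5 regulatory sequence drives a yellow fluorescent protein. The Nkx2.5 protein is a transcription factor that marks heart and pharyngeal mesoderm. Positive libraries held RNA of sorted ZsYellow-positive cells, which the labels call cardiopharyngeal progenitors and cardiomyocytes. Negative libraries held RNA of ZsYellow-negative cells from such embryos, and the labels do not say whether the groups share embryos. All 4 libraries therefore share the transgene, the stage and an unnamed laboratory strain, with no treatment given, and each group had 2 replicates. The labels do not say how many embryos or separate sorts stand behind a replicate, so the p-values measure only the spread between these libraries, which may be technical. Positive cells are a mixture marked by 1 reporter and negative cells are cells without its signal, so a level is an average over cell types. Fewer cells of a type and less RNA per cell therefore cannot be told apart.

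Oxidative phosphorylation is carried out on the inner mitochondrial membrane. Complexes I and II take electrons from NADH and succinate, complex III passes them to cytochrome c, complex IV hands them to oxygen, and complex V, the ATP synthase, uses the resulting proton gradient to make ATP. Most subunits are encoded in the nucleus and a few in mitochondrial DNA. In the adult vertebrate heart, a tissue rich in mitochondria, this pathway supplies most ATP, and several complex IV subunits there exist as tissue-specific paralogs.

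Each library held between 31996733 and 40133331 counts, the deepest having 1.25 times the count of the shallowest. The sort was checked on the gene that drives the reporter: NKX2-5 had 426 and 513 CPM (counts scaled to a library of 1000000) in positive and 5.75 and 5.77 CPM in negative libraries, a log2 fold change of 6.35 (standard error 0.226, adjusted p 6.43e-06 in edgeR). Of 9 cardiopharyngeal marker IDs 9 were called higher in positive cells, of 7 cardiomyocyte IDs 6 were higher and 1 lower, and of 6 endothelial IDs 6 were higher. NKX2-5 is 1 of the 9 cardiopharyngeal IDs and part of that list's summed CPM, so the list is not independent of the sort. Of 9 somite IDs 9 were lower, of 9 blood IDs 7 were lower and 1 higher, of 5 neural IDs 5 were lower, and of 6 epidermal IDs 2 were lower. Without negative replicate 2, 3 endothelial IDs were called higher and 1 epidermal ID lower, and epidermal IDs called lower numbered 5 without positive replicate 1 and 0 without negative replicate 1. The cardiomyocyte ID called lower was uncalled without either negative replicate, and the blood ID called higher was uncalled without negative replicate 1. Summed CPM of the cardiomyocyte list was 5547 and 5847 in positive and 1279 and 1121 in negative libraries. The cardiopharyngeal list had 1720 and 1691 against 231 and 238, and the endothelial list 609 and 837 against 213 and 171. The somite list had 212 and 179 against 1424 and 1500, and the blood list 896 and 982 against 2098 and 2195. The neural list had 465 and 412 against 1175 and 1091, and the epidermal list 1347 and 890.3 against 2326 and 1945. Some listed markers matched no ID and are not counted: 2 each of the cardiomyocyte, endothelial and neural lists, and 1 each of the cardiopharyngeal and blood lists. No marker ID of these lists was at 0 in both libraries of a group, and the part of these cell types in the results below was not tested.

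The comparison asked how expression of these genes compares between ZsYellow-positive and ZsYellow-negative cells. Levels of the respiratory chain and ATP synthase genes lay close together in both. Of the 106 IDs, 105 passed the count filter of the test and cox8b did not. At an adjusted p under 0.05, edgeR (quasi-likelihood) called 1 of the 105, or 0.952%, against 17.1% of all 19084 genes tested. The called gene, NDUFA4L2, was higher in positive cells, and 0 were called lower, against 9.02% of all genes called higher and 8.07% called lower. Unadjusted p-values under 0.05 were found for 10 of 105, or 9.52%, against 30.2% of all genes. Among the 10 was cox4i1l, which reached the count limit for being kept only in its positive libraries. By the DESeq2 Wald test, 0 of the 105 genes were called in either direction.

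The differences were small as well as uncalled. The median size of the log2 fold change, in either direction, was 0.133 over the 105 genes and 0.379 over all genes tested. In 95 of the 105, or 90.5%, the 95% interval of the log2 fold change lay inside -1 to 1, so that a 2-fold difference in either direction fell outside the interval; this held for 46.2% of all genes. These IDs are well counted, with a median SE of 0.185 on the log2 scale against 0.258 over all genes. Between replicates, the median size of the log2 ratio over the same 105 genes was 0.175 for the positive libraries and 0.253 for the negative libraries, against 0.129 between the group means. Over all genes tested, these values were 0.231, 0.222 and 0.313. A mean of 2 libraries varies less than a single library, so ratios between means run smaller than ratios between replicates from noise alone. Levels correlated between the groups across the 106 IDs, with a Pearson's r of 0.994. That value used log2(TPM + 1) averaged over positive and over negative libraries, and describes genes that share their libraries. TPM is transcript abundance per length, scaled to 1000000 in each library.

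**Figure D1:**
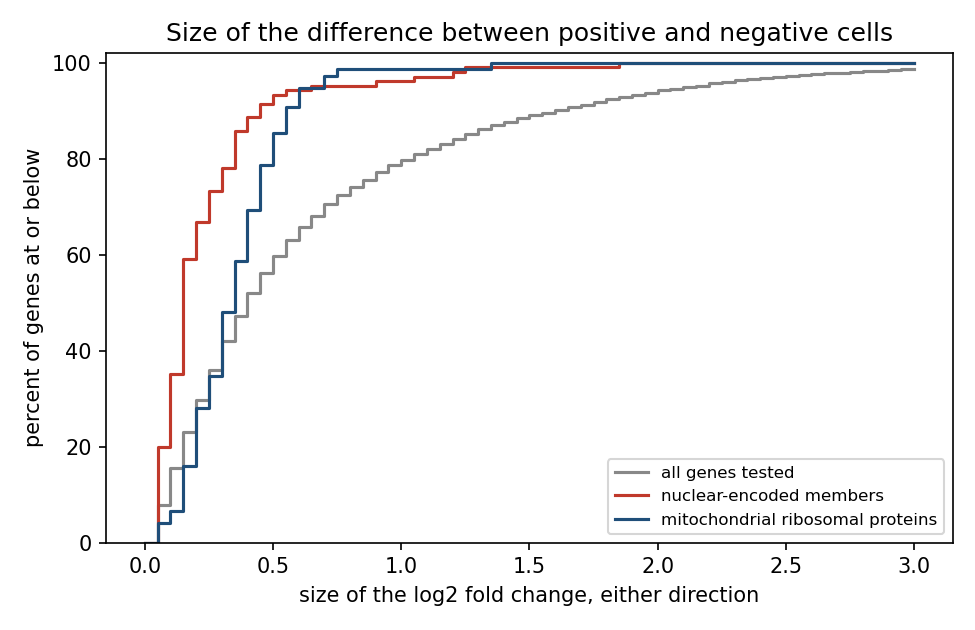
Percent of genes (vertical axis) whose log2 fold change between positive and negative cells was at or below a given size in either direction (horizontal axis). The curve of the nuclear-encoded oxidative phosphorylation genes lies above that of all genes tested at small sizes, with medians of 0.133 and 0.379. The curve of the mitochondrial ribosomal proteins, whose median size is 0.313, lies below that of all genes up to 0.25 and above it from 0.3.

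The small differences leaned downward. The log2 fold change was below 0 in 79 of the 105 genes, or 75.2%, against 50.5% of all genes tested, and its median was -0.12 against -0.01. Both positive libraries were under both negative ones in 32 of the 105, or 30.5%, near the 30.3% of all genes, and above them in 3, or 2.86%, against 27.9%. One of these, cox4i1l, reached the count limit for being kept only in its positive libraries. In the fits on counts, the lean of the 105 as a whole rested on negative replicate 2. Without it, 49 IDs were below 0 and the median was 0.02, and without negative replicate 1 the median was -0.23. Not every complex followed. Without negative replicate 2 the medians of complexes III and V were -0.02 and 0.05, but complex II had -0.24 and cytochrome c -0.37. Summed TPM of the 106 IDs was 29645 and 29713 in positive and 31867 and 32659 in negative libraries, so that sum was higher in each negative library. The libraries also differed in how counts followed transcript length, measured as count divided by TPM. Across all genes tested, the deviation of a gene from its own mean had a Spearman's rho with length of 0.0827 and 0.203 in positive and -0.0471 and -0.234 in negative libraries. The median length of the 105 genes was 0.309 of that of all genes tested. With each library's length trend removed, an alternative chosen after seeing the data, their median was -0.04. Within the 105, the 52 genes above their own median length had a median of -0.14, and the other 53, which were shorter, -0.09. The part of length in the lean was not tested.

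**Figure D2:**
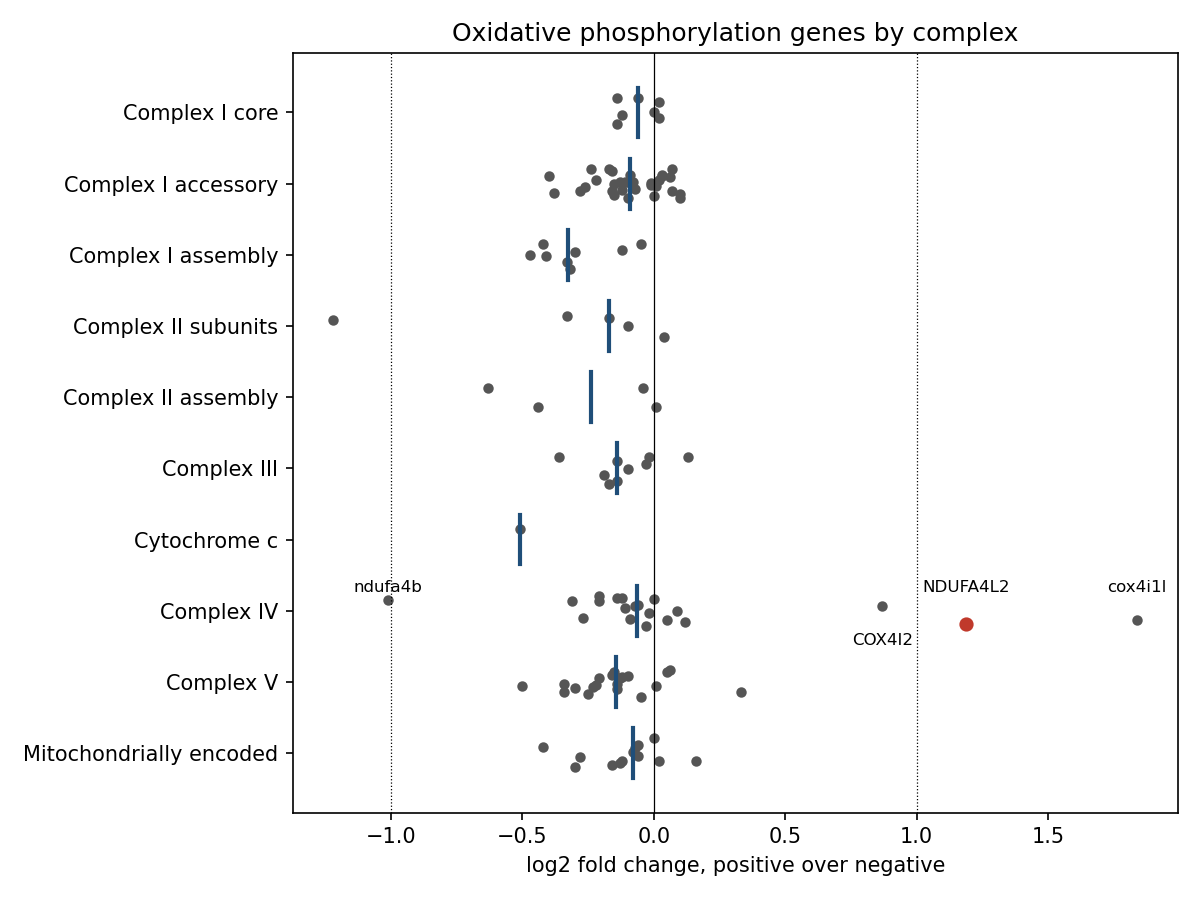
Each point is the log2 fold change (positive over negative cells, horizontal axis) of 1 gene, in rows by complex and role, with the mitochondrially encoded subunits in the last row. Blue bars mark row medians, dotted lines a 2-fold change, and the red point the called gene, NDUFA4L2. Most points lie within 0.5 of 0, and those beyond include the labelled complex IV paralogs. Of these, cox4i1l was kept through its positive libraries alone, so its place follows from how it was kept.

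Complex I, the NADH dehydrogenase, was represented by 7 core subunits, which hold the flavin and iron-sulphur centres, 31 accessory subunits and 8 assembly factors. No complex I gene was called, and the median log2 fold change of -0.11 over its 46 IDs ran from -0.18 to -0.01 as single libraries were left out. The 7 core subunits had a median log2 fold change of -0.06 and ran from -0.14 to 0.02. NDUFV1, the NADH-binding subunit, had 60.9 and 65.5 TPM in positive and 73.3 and 66.2 TPM in negative libraries. NDUFS1, the iron-sulphur subunit beside it, had 45.4 and 56.2 TPM against 60.2 and 43.4 TPM. For NDUFV1 the positive libraries lay just below the negative ones, and for NDUFS1 the groups overlapped. The accessory subunits had a median of -0.09 and ran from -0.40 to 0.10. The most abundant nuclear-encoded ID per length of complex I was the accessory subunit NDUFB9. It had 518 and 552 TPM in positive and 521 and 547 TPM in negative libraries. Its groups overlapped, and its log2 fold change was 0.00 (95% interval -0.39 to 0.40, adjusted p 0.99 in edgeR).

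At the lower end of the accessory subunits stood ndufab1b, an acyl carrier protein. It had 287 and 346 TPM in positive and 435 and 424 TPM in negative libraries, which did not overlap, and its log2 fold change of -0.40 was not called (standard error 0.17, adjusted p 0.155 in edgeR). The other acyl carrier ID, NDUFAB1, had 310.4 and 347 TPM against 379 and 412 TPM, also without overlap. The 8 assembly factors, NDUFAF1 to NDUFAF8, build complex I and are not part of the finished enzyme. All 8 had a log2 fold change below 0, with a median of -0.33 and a range of -0.47 to -0.05, and in 6 of them both positive libraries were under both negative ones, against 30.3% of all genes tested. None of the 8 was called. NDUFAF1 had 35.2 and 35.3 CPM in positive and 43.1 and 50.8 CPM in negative libraries, with a log2 fold change of -0.41 (standard error 0.173, adjusted p 0.144 in edgeR). Their summed level was 209 and 209 TPM in positive and 285 and 249.6 TPM in negative libraries.

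Complex II, succinate dehydrogenase, also belongs to the citric acid cycle and has no subunit encoded in mitochondrial DNA. Its 5 subunit IDs had a median log2 fold change of -0.17 and none was called. The flavoprotein subunit SDHA had 63.8 and 78.2 TPM in positive and 76.1 and 65.6 TPM in negative libraries, which overlapped. The membrane anchor SDHC, the most abundant ID of complex II per length, had 53.9 and 43.2 CPM against 44.5 and 49.8 CPM, with a log2 fold change of 0.04 (95% interval -0.37 to 0.46, adjusted p 0.908 in edgeR). The name SDHD, the other anchor, belongs to a pair of IDs. The abundant one (ENSDARG00000030139) had 55.5 and 55.4 TPM in positive and 74.4 and 67.4 TPM in negative libraries and a log2 fold change of -0.33 (standard error 0.164, adjusted p 0.21 in edgeR). The rare one (ENSDARG00000055712) had 20 and 11 counts against 42 and 32, and its log2 fold change of -1.22 was not called (95% interval -2.42 to -0.01, adjusted p 0.163 in edgeR). Reads of such copies may have been divided between IDs, so each value is uncertain on its own.

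Among the 4 complex II assembly factors, SDHAF3 had 11.4 and 7.2 CPM in positive and 13 and 15.6 CPM in negative libraries. The groups did not overlap, and the log2 fold change of -0.63 was not called (standard error 0.265, adjusted p 0.147 in edgeR). The log2 fold change of SDHAF3 ran from -0.96 to -0.33 as single libraries were left out, which leaves 1 library in a group.

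Complex III, the cytochrome bc1 complex, had 9 IDs with a median log2 fold change of -0.14, a range of -0.36 to 0.13 and no call; without negative replicate 2 the median was -0.02. UQCRB, a small subunit near the ubiquinone site, was the most abundant nuclear-encoded ID of complex III per length. It had 978 and 830.4 TPM in positive and 811 and 845 TPM in negative libraries. The groups overlapped, and the log2 fold change was 0.13 (95% interval -0.31 to 0.57, adjusted p 0.71 in edgeR). UQCRFS1, the Rieske iron-sulphur protein, had 71.9 and 79.8 TPM against 91.2 and 82.4 TPM, and CYC1, cytochrome c1, had 281 and 300.0 TPM against 322 and 325 TPM. In both, the positive libraries lay below the negative ones. The small subunit UQCR10 was set apart by 1 library: it had 43.0 CPM in positive replicate 1, 66.1 in positive replicate 2, and 64.6 and 75.9 in the negative libraries. Its log2 fold change of -0.36 (adjusted p 0.324 in edgeR) ran from -0.71 to -0.06 as single libraries were left out, which leaves 1 library in a group.

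Cytochrome c carries electrons from complex III to complex IV and also takes part in apoptosis. The ID named cycsb had 514 and 577 TPM in positive and 765 and 799.7 TPM in negative libraries, so both positive libraries were under both negative ones. The log2 fold change was -0.51 (standard error 0.18, 95% interval -0.92 to -0.11) and was not called, with an edgeR adjusted p of 0.0874. The other cytochrome c ID, cycsa, had 0, 0, 0 and 1 counts.

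Complex IV, cytochrome c oxidase, had 21 IDs, of which 20 were tested, with a median log2 fold change of -0.07 that ran from -0.24 to 0.12 as single libraries were left out. NDUFA4 and its relatives are counted here, since the NDUFA4 protein of mammals is a complex IV subunit despite its name. The most abundant of all the kept nuclear-encoded IDs per length was COX7C, a small membrane subunit. It had 1859 and 2190 TPM in positive and 2075 and 2125 TPM in negative libraries. Its groups overlapped, with a log2 fold change of -0.07 (95% interval -0.49 to 0.34, adjusted p 0.838 in edgeR). COX5B (ENSDARG00000015978), which binds zinc in mammals, had 1302 and 1191 TPM against 1230 and 1086 TPM, and cox6b2, on the intermembrane face, had 1054 and 1216 TPM against 1220 and 1238 TPM. The groups of COX5B overlapped, while those of cox6b2 overlapped by CPM (409 and 436 against 393 and 465) but not by TPM, where both positive libraries were under both negative ones.

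The range of complex IV, from -1.01 to 1.84, was set by rare paralogs, its upper end by cox4i1l, which was kept through its positive libraries alone. NDUFA4L2 (ENSDARG00000103114), a relative of NDUFA4 that is induced by low oxygen in human cells, was the called gene. Its counts were 85 and 128 for positive and 39 and 52 for negative cells, or 2.73 and 3.26 CPM against 1.08 and 1.54 CPM. Both positive libraries were over both negative ones, with means of 2.99 ± 0.373 and 1.31 ± 0.322 CPM (SD, n = 2 each), a log2 fold change of 1.19 (standard error 0.346, 95% interval 0.41 to 1.98) and an edgeR adjusted p of 0.0453. The call sat at the threshold. It was lost with upper-quartile factors (1.09, adjusted p 0.063), with the DESeq2 Wald test (1.21, adjusted p 0.0513), without positive replicate 2 (1.06, adjusted p 0.0988), without negative replicate 1 (0.96, adjusted p 0.236) and without negative replicate 2 (1.48, adjusted p 0.0965).

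NDUFA4 itself had 531 and 573 TPM in positive and 516 and 570.5 TPM in negative libraries, which overlapped, with a log2 fold change of 0.05 (95% interval -0.37 to 0.46, adjusted p 0.894 in edgeR). A further relative, ndufa4b, had 43 and 39 counts against 110 and 58, and its log2 fold change of -1.01 was not called (standard error 0.408, adjusted p 0.131 in edgeR). The ID ndufa4l2b, which fell below the count limit, had 8 and 0 counts in positive and 3 and 9 in negative libraries. Its TPM is part of the family sum. NDUFA4 took 99.0 ± 0.103% of the summed TPM of these relatives in positive and 99.1 ± 0.135% in negative libraries (SD, n = 2 each). NDUFA4L2 took 0.602% and 0.723% in the positive and 0.273% and 0.31% in the negative libraries.

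COX4 is the subunit through which complex IV responds to ATP, and in mammals the alternative form COX4I2 is induced by low oxygen. The genes of this family were chosen for description after their values were seen. COX4I1 had 482 and 498 TPM in positive and 561 and 619 TPM in negative libraries. The positive libraries lay below, and the log2 fold change was -0.27 (standard error 0.184, adjusted p 0.384 in edgeR). COX4I2 had 27.7 and 14.1 TPM in positive and 13.1 and 10.4 TPM in negative libraries. The positive libraries lay above, but replicate 2 only narrowly. The log2 fold change of COX4I2 was 0.87 (standard error 0.337, 95% interval 0.11 to 1.64) and was not called (adjusted p 0.116 in edgeR). It ran from 0.26 to 1.32 as single libraries were left out, which leaves 1 library in a group. Another ID, cox4i1l, had 29 and 17 counts against 7 and 6. It met the limit of 10 counts in 2 libraries through its positive libraries alone. Its higher values there follow from how it was kept and are not read as a difference. COX4I2 made up 5.42% and 2.75% of the summed TPM of the COX4 family in positive libraries and 2.28% and 1.65% in negative ones. Summed CPM of the cardiomyocyte, cardiopharyngeal and endothelial marker lists, given above, was likewise higher in both positive libraries, though 1 cardiomyocyte ID was called lower. The part of these cell types was not tested.

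**Figure D3:**
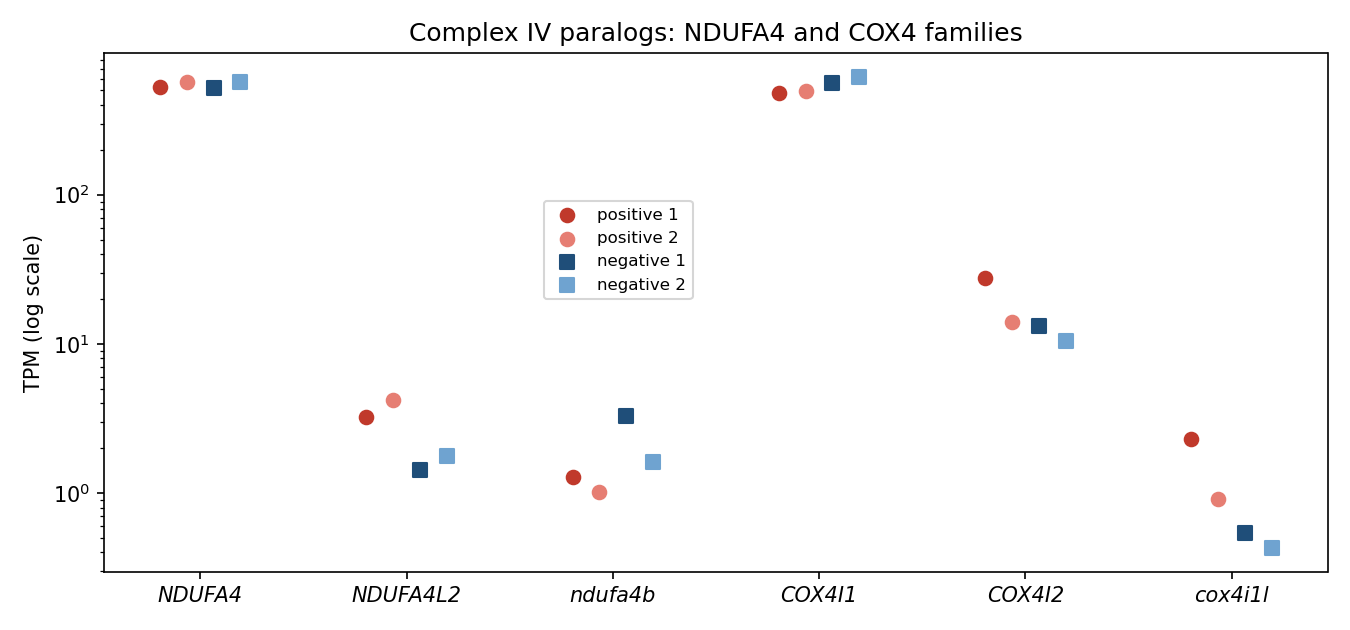
TPM on a log scale (vertical axis) of the kept NDUFA4 and COX4 family IDs in the 4 libraries. Circles mark positive and squares negative cells. NDUFA4 and COX4I1 lie between 482 and 619 TPM in each library, NDUFA4L2 between 1.42 and 4.18 TPM, and COX4I2 between 10.4 and 27.7 TPM. NDUFA4L2 and COX4I2 have both positive libraries above both negative ones; cox4i1l does too, but was kept through its positive libraries alone.

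Some complex IV paralogs were rare at this stage. The ID named cox7a1, after the mammalian heart and muscle form of COX7A, had 33 and 18 counts in positive and 21 and 32 in negative libraries, at most 0.23% of the COX7A family's summed TPM. COX8 showed 1 main form, cox8a, with 422 and 487 TPM against 465 and 501 TPM. The other ID, cox8b, had 2 and 0 counts in positive and 10 and 19 in negative libraries. It was kept through its negative libraries alone, so its lower values in positive cells follow from how it was kept. Of COX6B, cox6b2 took at least 99.5% of the summed TPM in each library. COX5A was divided more evenly, with COX5A at 43.2% and 46.9% of the family in positive and 44.0% and 45.4% in negative libraries, and cox5aa making up the rest. COX7A2L, which joins complexes into supercomplexes in mammals, had 369 and 359 TPM in positive and 440.5 and 463 TPM in negative libraries, without overlap, and was not called (adjusted p 0.297 in edgeR).

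Complex V had 18 subunit IDs and 2 inhibitor IDs, with a median log2 fold change of -0.14 and no call. That median was 0.05 without negative replicate 2 and -0.31 without negative replicate 1. Over its catalytic head, ATP5F1A, the alpha subunit, had 265 and 253 TPM in positive and 264 and 246 TPM in negative libraries, which overlapped. ATP5F1B, the catalytic beta subunit, had 537 and 812 TPM against 959.8 and 768 TPM. Its positive libraries lay below the negative ones by CPM, though positive replicate 2 exceeded negative replicate 2 in TPM. ATP5F1C, the gamma subunit that turns inside the head, had the lowest log2 fold change of complex V. It had 298 and 326 CPM in positive and 445 and 436 CPM in negative libraries, with means of 312 ± 19.9 and 440.3 ± 6.27 CPM (SD, n = 2 each). The groups did not overlap, yet the log2 fold change of -0.50 (standard error 0.171, 95% interval -0.89 to -0.11) was not called at an edgeR adjusted p of 0.0827. With upper-quartile factors, which moved the median of all genes tested from -0.01 to -0.11, ATP5F1C was called at -0.60 (adjusted p 0.0445 in edgeR).

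The membrane ring of ATP synthase is built from many copies of subunit c, made from 3 IDs here. Of these, atp5mc3b was the most abundant nuclear-encoded ID of complex V per length. It had 1079 and 963 TPM in positive and 1269 and 1337 TPM in negative libraries, without overlap. Its log2 fold change of -0.34 was not called (95% interval -0.79 to 0.10, adjusted p 0.282 in edgeR). Within subunit c, atp5mc3b took 62.6% and 61.4% of the summed TPM in positive and 66.0% and 65.9% in negative libraries, and atp5mc1 took 20.6% and 21.2% against 18.8% and 17.7%. ATP5IF1 proteins block the hydrolysis of ATP by the enzyme when the proton gradient fails. The ID atp5if1a had 564 and 310.3 TPM in positive and 306 and 389.7 TPM in negative libraries, so that only positive replicate 1 stood high. Its log2 fold change of 0.33 (adjusted p 0.53 in edgeR) became 0.75 without positive replicate 2 and -0.21 without positive replicate 1. Each of these fits had 1 positive library.

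Summed per complex, positive libraries were under negative ones for each of them but complex III. The mean sum was lower by 6.84% in complex I, 10.3% in II, 4.33% in IV and 12.7% in V. All 106 IDs took 2.96% and 2.97% of the TPM in positive and 3.19% and 3.27% in negative libraries. Complex I summed to 8191 ± 1.56 TPM in positive and 8793 ± 117 TPM in negative libraries (SD, n = 2 each), and complex V to 8229 ± 56.4 against 9428 ± 148 TPM. For both, positive libraries lay below negative ones. Complex IV summed to 9547 ± 173 against 9979 ± 246 TPM, complex II to 352 ± 5.66 against 393 ± 21.8 TPM, and complex III to 2814 ± 119.7 against 2889 ± 47.7 TPM. Only in complex III did the groups overlap. With 2 libraries a group, an exact two-sided permutation test cannot go below 0.333, so no sum was tested. A sum of TPM also depends on every other gene, since each library adds up to the same total.

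**Figure D4:**
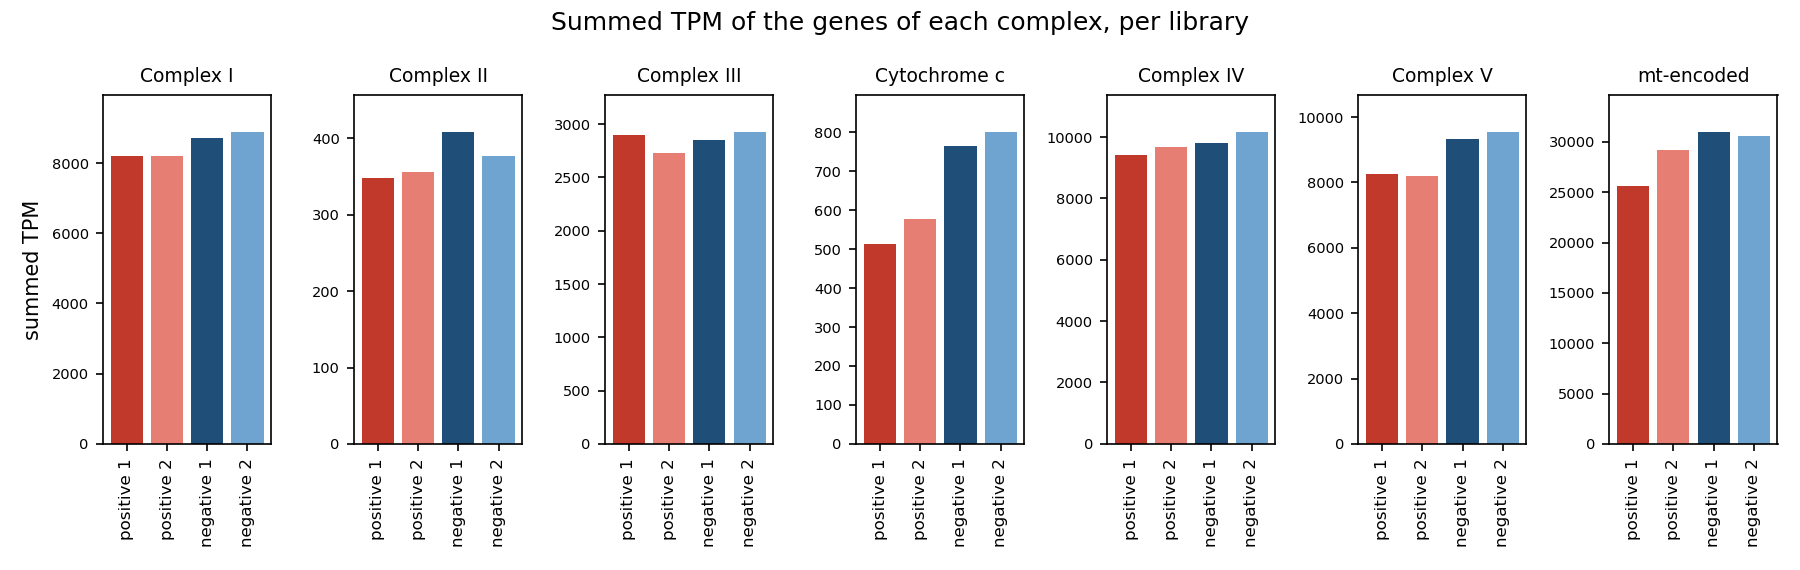
Summed TPM (vertical axes, each from 0 and with its own scale) of the IDs of each complex in the 4 libraries, red for positive and blue for negative cells, with the mitochondrially encoded subunits at the right. Cytochrome c stands at 514 and 577 TPM in positive and 765 and 799.7 TPM in negative libraries, and complex III differs least, at 2899 and 2730 against 2856 and 2923 TPM.

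The 13 protein-coding genes of mitochondrial DNA supply the remaining subunits of complexes I, III, IV and V. Of these 13, 0 were called by edgeR and 0 had an unadjusted p under 0.05, the DESeq2 Wald test called 0, and the median log2 fold change was -0.08. The 95% interval lay inside -1 to 1 in 13 of 13. The lowest was MT-CO1, the catalytic subunit of complex IV, with 2628 and 2929 CPM in positive and 3948 and 3496 CPM in negative libraries. The groups did not overlap, and the log2 fold change was -0.42 (standard error 0.192, adjusted p 0.178 in edgeR). MT-ND5, a proton-pumping subunit of complex I, had 353 and 434 CPM against 467 and 501 CPM and a log2 fold change of -0.30 (adjusted p 0.326 in edgeR). MT-CO3, another core subunit of complex IV, had 1778 and 2537 CPM against 2607 and 2638 CPM and a log2 fold change of -0.28 (adjusted p 0.441 in edgeR), with positive replicate 1 well below the other libraries. The 13 genes summed to 25640 and 29251 TPM in positive and 30954 and 30552 TPM in negative libraries, or 2.56% and 2.93% against 3.1% and 3.06% of all TPM. Their median became 0.11 without negative replicate 2 and -0.27 without negative replicate 1.

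Genes that serve the pathway without being part of it were described from lists of mitochondrial functions. Listed entries that matched no ID were left out. Of 45 further assembly factors, 44 were tested, and 1 was called lower and 0 higher, against 8.07% and 9.02% of all genes, with a median log2 fold change of -0.23. SCO2, which delivers copper to complex IV, had 7.09 and 6.26 CPM in positive and 13.6 and 16.3 CPM in negative libraries. Both positive libraries were under both negative ones, with a log2 fold change of -1.16 (standard error 0.224, adjusted p 0.00733 in edgeR), and without negative replicate 2 the change was -1.02 and not called (adjusted p 0.0828). Of 75 mitochondrial ribosomal protein IDs, which translate the 13 mitochondrial messages, 3 were called lower and 0 higher, against 8.07% and 9.02% of all genes. Their median was -0.29, and in 53 of 75 both positive libraries were under both negative ones, against 30.3% of all genes tested. The 3 were MRPL27 at -0.56, mrpl54 at -0.66 and MRPS22 at -0.67, with edgeR adjusted p-values of 0.0495, 0.0282 and 0.0312. Each was uncalled without negative replicate 1 (-0.65, -0.77 and -0.75) and without negative replicate 2 (-0.47, -0.53 and -0.58). MRPL27 was also uncalled without either positive replicate (-0.53 and -0.57) and MRPS22 without positive replicate 1 (-0.52). With all 4 libraries, MRPL27 was uncalled with DESeq2 size factors (-0.55), no low-count filter (-0.54), both limma fits (-0.57) and length trends removed (-0.45). A replicate block (-0.56) also left MRPL27 uncalled. MRPS22 was uncalled in limma on log2(TPM + 0.1) (-0.69) and with length trends removed (-0.58). With length trends removed, 1 of the 75 was called lower, and without positive replicate 2 there were 5 called higher and 5 lower.

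Of 15 protein import IDs, 14 were tested, 2 were called lower and 0 higher, against 8.07% and 9.02% of all genes, and the median was -0.30. TIMM50, part of the inner-membrane import machinery, had 32.3 and 26.7 CPM in positive and 52.9 and 55.9 CPM in negative libraries, with a log2 fold change of -0.89 (standard error 0.178, adjusted p 0.00903 in edgeR). TIMM10, a chaperone of the intermembrane space, had 76.0 and 73.6 CPM against 104 and 136 CPM, with a log2 fold change of -0.68 (standard error 0.186, adjusted p 0.0361 in edgeR). Positive libraries lay below negative ones in both. Without negative replicate 2 neither was called (-0.84 and -0.46), and TIMM50 was not called without negative replicate 1 (-0.92, adjusted p 0.0531).

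Among 16 IDs of regulators of mitochondrial biogenesis, 14 were tested, 1 was called higher and 1 lower, near the 9.02% and 8.07% of all genes, and the median log2 fold change was -0.09. The gene called higher, ppargc1b, encodes a coactivator of the PGC-1 family, which raises transcription of mitochondrial genes in mammals. It had 48.4 and 62.2 CPM in positive and 23.1 and 17.1 CPM in negative libraries. Both positive libraries were over both negative ones, with a log2 fold change of 1.46 (standard error 0.216, 95% interval 0.97 to 1.95, adjusted p 0.00187 in edgeR). That change ran from 1.27 to 1.69 as single libraries were left out. The other coactivators of this family were not called in edgeR with TMM factors: PPARGC1A had 3.05 and 2.75 CPM against 3.44 and 3.28 CPM (log2 fold change -0.22, adjusted p 0.675 in edgeR), and pprc1 had 166 and 187 CPM against 257 and 258 CPM (-0.55, adjusted p 0.0582 in edgeR). The gene pprc1 was called lower with upper-quartile factors (-0.65, adjusted p 0.0303), a filter of 1 CPM (-0.56, adjusted p 0.0482), the DESeq2 Wald test (-0.53, adjusted p 0.038) and length trends removed (-0.69, adjusted p 0.0223). The gene called lower, tfb2m, encodes a factor that starts mitochondrial transcription. It had 26.0 and 28.8 CPM in positive and 50.7 and 52.7 CPM in negative libraries, with a log2 fold change of -0.92 (standard error 0.169, adjusted p 0.00592 in edgeR), and was not called without negative replicate 2 (-0.88, adjusted p 0.0611).

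Carriers and energy-transfer genes numbered 11 IDs, since 7 of the 18 listed entries matched no ID. Of the 11, 8 were tested, 2 were called lower and 0 higher, against 8.07% and 9.02% of all genes, and the median log2 fold change was -0.12. Both called genes encode muscle-type creatine kinases, which move phosphate from ATP to creatine in the cytosol. The larger change was that of ckmb, with 6 and 4.78 CPM in positive and 27.4 and 20.9 CPM in negative libraries (log2 fold change -2.16, standard error 0.239, adjusted p 0.000401 in edgeR). ckma had 5.17 and 2.62 CPM against 11.2 and 8.67 CPM (-1.36, standard error 0.339, adjusted p 0.0247 in edgeR) and lost its call when negative replicate 1 (-1.16) or negative replicate 2 (-1.51) was left out. Somite markers, which include MYOD1 and MYF5, fell in positive cells alongside, 9 of 9 called lower. Summed CPM of the blood, neural and epidermal lists was also lower there, and the part of these cell types was not tested.

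**Figure D5:**
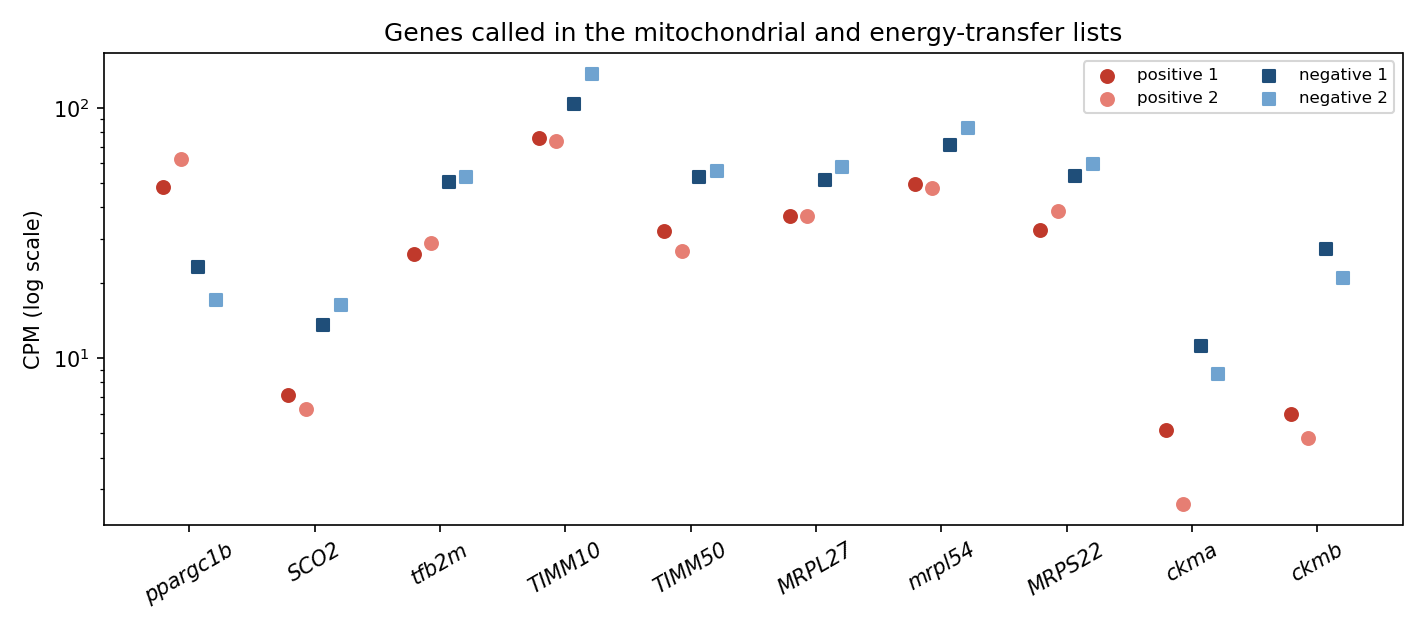
CPM on a log scale (vertical axis) in the 4 libraries of the 10 genes called in the lists of mitochondrial and energy-transfer genes, circles for positive and squares for negative cells. Only ppargc1b has both positive libraries above both negative ones, and the other 9 have them below.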

How the data were processed

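RNA of 4 sorted-cell libraries was sequenced as paired 50 nt reads on an Illumina HiSeq2500 from about 50 ng of RNA, with a poly(A)-primed, tagmented low-input kit, per the labels' protocols. The submitters' processing notes name BWA 0.7.12-r1039, bedtools and Salmon 1.2.1 and the builds Zv9 and GRCz11, with no role or order. Use of strand is not given in the sources used here, so overlapping antisense genes cannot be told apart. The deposited table holds a whole number per Ensembl gene, read here as a rounded estimated count because 20 entries pair a count of 0 with a TPM above 0. TPM was deposited on a log2 scale, log2(TPM + 1). Molecular identifiers are not mentioned, so counting error covers counts, not molecules. Symbols came from a table that named 23599 IDs, and 6 of the 106 kept IDs share a name with another ID. Synonyms of assembly GRCz12tu served only to match names. No coordinates or sequences are used here.

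Counts were tested over the whole table with edgeR 4.0.16 in R 4.3.3: quasi-likelihood F test, TMM factors, filterByExpr (minimum count 10, minimum total 15), Benjamini-Hochberg adjustment over all genes tested and a call at an adjusted p under 0.05. Fold changes are positive over negative. Standard errors were derived from the F statistic, and 95% intervals from the degrees of freedom of the test. CPM uses TMM-scaled totals. Counts of genes whose groups do not overlap use CPM. TPM was recovered from the deposited log2 values. The procedure was tested on simulated counts. Members, lists and tests were chosen with earlier results of these data known. Genes named were those called, the most abundant nuclear-encoded ID of each complex, paralogs of a called gene and at most 4 called genes a list. Others were chosen after their values were seen, including those with an unadjusted p under 0.05. Alternatives were DESeq2 1.42.0 (Wald test, and its size factors), upper-quartile factors, other filters, limma 3.58.1 on log2(TPM + 1) and log2(TPM + 0.1), a replicate block, leaving out each library, a stricter threshold, subsets of the members and, added after seeing the data, removal of each library's length trend.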

Additional observations from a re-analysis of the deposited data

How the results depend on the processing

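With upper-quartile factors, 0 of the oxidative phosphorylation genes were called higher and 1 lower. With the DESeq2 Wald test, and at an adjusted p under 0.01, 0 were called higher. Without a low-count filter 1, cox8b, was called lower. It was kept through its negative libraries alone, so a lower call of cox8b in any fit follows from how it was kept. At 0.01, 966 genes in all were called higher and 784 lower. A fit without 1 library leaves 1 library in its group. Calls and p-values of such fits, here and above, rest on the spread of the other group alone. Leaving out each library gave 0 to 2 called higher, 0 to 2 lower, 49 to 95 below 0, and 852 to 2446 (higher) and 747 to 1846 (lower) over all genes. Medians of the log2 fold change then ran from -0.23 to 0.02 for these genes, -0.18 to -0.01 in complex I, -0.26 to -0.14 in II, -0.19 to -0.02 in III, -0.31 to 0.05 in V and -0.64 to -0.37 in cytochrome c. They ran from -0.27 to 0.11 for the mitochondrially encoded subunits, -0.29 to -0.19 for further assembly factors, -0.19 to -0.09 for carriers, -0.26 to -0.09 for regulators and -0.41 to -0.17 for mitochondrial ribosomal proteins.

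Counts called lower ran from 0 to 3 (assembly), 1 to 2 (carriers), 0 to 1 (regulators), 0 to 4 (import) and 0 to 5 (ribosomal), and counts called higher from 0 to 1 (assembly, carriers) and 0 to 5 (ribosomal). Upper-quartile factors gave medians of -0.27 (complex II), -0.24 (III), -0.33 (assembly), -0.22 (carriers), -0.19 (regulators) and -0.40 (import), and 4, 3 and 7 called lower among assembly factors, regulators and ribosomal proteins. They shift all genes, from -0.01 to -0.11. Limma with pseudocounts of 1 and 0.1 gave -0.31 and -0.35 in complex II and -0.17 in both for carriers, which had -0.07 with no filter. Removing the length trend gave -0.26 (complex II), -0.16 (assembly) and -0.06 (carriers), with 2 regulators, 1 import and 1 ribosomal gene called lower. Regulators called lower numbered 2 with a filter of 1 CPM and by DESeq2. At 0.01, 1 carrier, 1 import and 0 ribosomal genes were called lower. Apart from the shift of all genes by upper-quartile factors, the cause was not tested.

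Values near 0 changed sign. NDUFA4 was -0.05 with upper-quartile factors and ran from -0.11 to 0.24 as libraries were left out. COX7C was 0.01 with length trends removed, 0.02 without positive replicate 1, and 0.08 without negative replicate 2. NDUFB9 was -0.10 with upper-quartile factors, -0.00 with the 1 CPM filter and from -0.13 to 0.16 as libraries were left out. SDHC was -0.06 with upper-quartile factors, -0.11 in both limma fits, and from -0.10 to 0.20 as libraries were left out (-0.04 without negative replicate 1). UQCRB was -0.03 and atp5if1a -0.21 without positive replicate 1, and 0.30 and 0.75 without positive replicate 2.

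The labels do not say whether libraries of the same replicate number share embryos. Across 19084 genes, same-numbered deviations correlated at -0.0923, which does not settle it. A fit with the replicate block called 1 of these genes higher and 0 lower, and 3323 genes in all. Under the block MRPL27 was not called (adjusted p 0.0863). With 2 libraries a group, the median standard error of 0.185 limits what can be told apart.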
